A study of Mus musculus with 6 samples.

Results

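The miR-200 family consists of 5 microRNA (miRNA) genes, mir-200b, mir-200a, mir-429, mir-200c and mir-141, which were taken by name from a small-RNA table of 898 miRNA genes. All 5 were listed. The table compared mouse E14Tg2a embryonic stem cells (ESCs) kept in leukemia inhibitory factor (LIF), a cytokine that sustains self-renewal, with neuronal cells (NCs), which are the same line after 48 hours in 1 µM retinoic acid (RA) with LIF withdrawn, at 3 libraries a group. Both groups came from this single line and were grown in medium with serum. NC is the study's name for the RA-treated cells, whose labels give them as treated ESCs and not as purified neurons. RNA was taken from whole cultures, so fewer cells that express a miRNA and less of it per cell cannot be told apart.

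miRNAs of this family are known for holding cells in an epithelial state. They bind the transcripts of Zeb1 and Zeb2, transcription factors that silence E-cadherin, the adhesion protein of epithelial cells, and Zeb1 in turn silences the family's genes. The family is abundant in many epithelia, and ESCs themselves grow in colonies joined by E-cadherin. A miRNA recognizes its targets mainly through its seed, bases 2 to 8 from the 5′ end, so members with the same seed are thought to share most targets.

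The mature 3′ arms, from RefSeq (GRCm38.p6), are shown because they divide the family by seed, given in capitals, and show how little separates the members from each other.
miR-200b-3p: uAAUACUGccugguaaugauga
miR-200c-3p: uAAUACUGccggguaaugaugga
miR-429-3p: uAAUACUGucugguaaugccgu
miR-200a-3p: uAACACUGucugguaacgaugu
miR-141-3p: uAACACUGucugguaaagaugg

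The first 3 share 1 seed and the last 2 the other. The seeds differ by a single base, U4C from miR-200b-3p to miR-200a-3p, counted from 1 at the 5′ end. Among 1738 mature mouse miRNAs in the RefSeq table, no others carried either seed. miR-200a-3p and miR-141-3p, which come from different chromosomes, differed only by C17A and U22G and shared a run of 16 nucleotides. miR-200b-3p and miR-200c-3p differed by U11G and A22G over 22 positions. A read that ends before position 17 cannot be assigned to mir-200a or mir-141, and the counting rule for such reads was not given in the sources used here. The separate values of these 2 genes are uncertain to that extent. The table has 1 value per hairpin, so reads from the 3′ and 5′ arms were not separated.

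The genes lie in 2 clusters (GRCm38, GENCODE M21). On the minus strand of chromosome 4, mir-200b (156055681 to 156055750), mir-200a (156054896 to 156054985) and mir-429 (156053905 to 156053987) lie within 1846 bases, inside an intron of Ttll10 and within the non-coding Gm13648, where mir-429 overlaps an exon. On the minus strand of chromosome 6, mir-200c (124718322 to 124718390) and mir-141 (124717914 to 124717985) are 336 bases apart in an intron of the non-coding Gm15884, and mir-141 also overlaps the unclassified transcript Gm29008. Each cluster holds both seeds.

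The deposited values were the authors' group means of normalized counts, that is, of reads scaled by each library's size factor. Reads of single libraries were recovered from these means, which are sums of whole multiples of 3 fixed steps, and were recovered for all 5 members in all 6 libraries. Within each group A names the library with the largest size factor and C the one with the smallest (from 1.62 down to 0.547 for ESCs and from 2.31 down to 0.585 for NCs), and this order does not match them to labelled replicates. A count of 0 in a library allows up to 3 reads, worth between 1.85 and 5.48 normalized counts in an ESC library and between 1.30 and 5.13 in an NC library. The libraries called C stood apart from the other 2 in both groups. Over 241 miRNAs whose mean reached 20, the log2 difference of C from the mean of A and B had an SD of 1.28 for ESCs and 1.15 for NCs, and it correlated between the groups (Pearson's r = 0.803, across miRNAs and so not across replicates). The labels gave no batch. ESC markers were checked against the labels: the 9 markers of the clusters of miR-290 to miR-295 and miR-302/367 with recovered reads summed to between 3139 and 4158 normalized counts in ESC libraries and between 641 and 946 in NC libraries. The neuronal mir-124-1, mir-124-2 and mir-124-3 had NC means of 5.25, 6.02 and 5.19 in the authors' table, against 2.44, 2.70 and 2.09 in ESCs, so this marker of neurons was close to the floor of 3.17 normalized counts for an NC mean.

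All 5 members had low levels, and their order was mir-200a, mir-141, mir-200b, mir-200c and mir-429 in both groups. The mature 3′ arms are 22 or 23 nucleotides long and the 5′ arms 21 or 22. Normalized counts can therefore be set side by side without a correction for length. The authors' means in ESCs placed mir-200a at rank 200, mir-141 at 216, mir-200b at 272, mir-200c at 420 and mir-429 at 518 of 549 miRNAs above 0. Together the 5 made up 0.0117% of all ESC signal and 0.00394% of all NC signal. The totals differ in makeup, since the mean of mir-10a was 2136 in ESCs and 754551 in NCs. The 2 shares therefore do not measure the family's change, and its summed ESC mean was 2.15 times its NC mean.

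mir-200a, the most abundant member, had 150, 57 and 20 reads in ESC libraries A, B and C and 101, 34 and 8 in NC libraries A, B and C. As normalized counts the ESC libraries held 92.5, 60.8 and 36.5 and the NC libraries 43.8, 34.8 and 13.7. Library C was the lowest of its group on both sides, and the groups overlapped, since ESC library C lay under NC library A.

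mir-141, which has the same seed on the other chromosome, had 98, 55 and 17 reads in ESCs and 73, 24 and 3 in NCs. Its normalized counts were 60.4, 58.7 and 31.1 in the ESC libraries and 31.6, 24.6 and 5.13 in the NC libraries. Again the groups overlapped only through ESC library C, and the value of NC library C rested on 3 reads.

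mir-200b, the most abundant member with the other seed, had 41, 12 and 13 reads in ESCs and 29, 11 and 5 in NCs. Its normalized counts of 25.3, 12.8 and 23.7 in ESCs lay above those of 12.6, 11.3 and 8.55 in NCs. The groups did not overlap, but ESC library B and NC library A nearly met. Among the 300 tested miRNAs, 14.7% were lower in NCs with no overlap between groups.

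mir-200c had 1, 3 and 0 reads in ESCs and 3, 2 and 0 in NCs. mir-429 had 1 read in ESC library A and 0 in the other 5 libraries. Both were at or under the floor of 3 reads in every library, so no fold change is given, and a difference between the groups was not detectable at this depth.

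**Figure D1:**
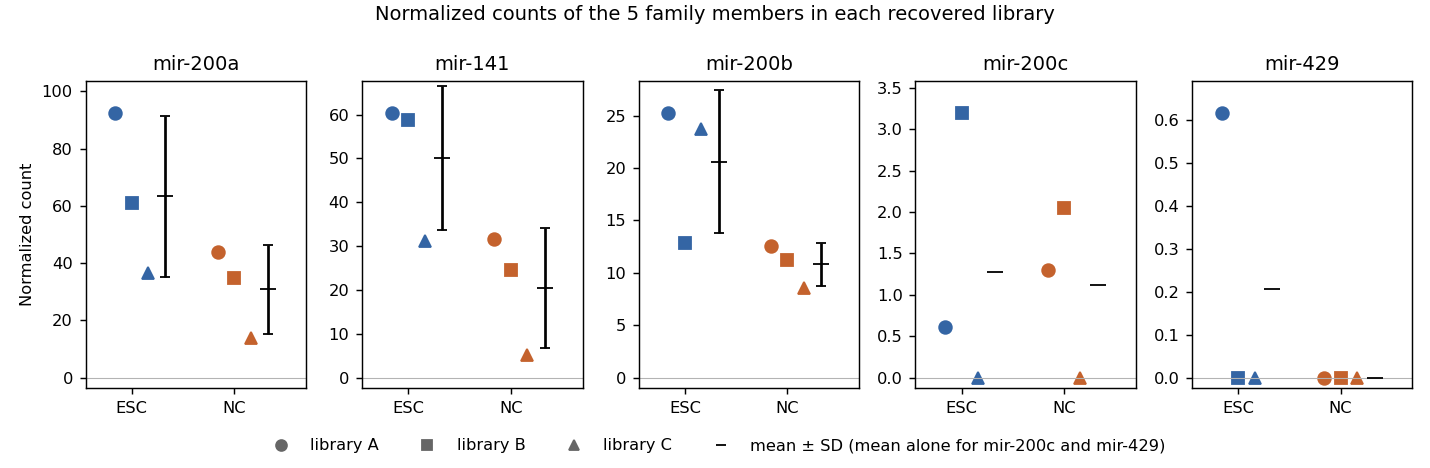
Normalized counts (y axis, a separate linear scale in each panel) of the 5 family members in the 3 ESC libraries (blue) and 3 NC libraries (orange), with symbols for libraries A, B and C; the black mark is the group mean with its SD, or the mean alone for mir-200c and mir-429, which had at most 3 reads in a library. For mir-200a and mir-141 each NC value lies under each ESC value, except that NC library A lies above ESC library C.

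To identify changes in the family's levels during RA-induced differentiation, the groups were compared by limma-voom, run on recovered reads of 300 miRNAs, adjusted by Benjamini-Hochberg over all 300. mir-200a, mir-141 and mir-200b passed the filter of 10 reads in 3 or more libraries, and mir-200c and mir-429 did not. The 3 tested members had lower means in NCs, but 0 of the 3 were called at an adjusted p-value under 0.05 in limma-voom. At an unadjusted p-value under 0.05 there were also 0, and limma-trend on the same miRNAs called 0. In this fit 6% of the 300 tested miRNAs were called lower in NCs and 16% were called in either direction.

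The mean of mir-141 was 50.0 ± 16.5 in ESCs and 20.4 ± 13.7 in NCs (SD, n = 3), a ratio of 2.45. Its log2 difference, NC minus ESC, was -1.27 ± 0.56 (SE, adjusted p-value 0.200 in limma-voom), with a 95% interval from -2.58 to 0.043. The mean of mir-200a was 63.3 ± 28.0 in ESCs and 30.8 ± 15.5 in NCs (SD, n = 3), a ratio of 2.06. Its log2 difference was -0.98 ± 0.48 (SE, adjusted p-value 0.258 in limma-voom), with an interval from -2.12 to 0.15. The difference of mir-200b, with means of 20.6 ± 6.80 and 10.8 ± 2.05 (SD, n = 3) and a ratio of 1.91, was -0.79 ± 0.42 (SE, adjusted p-value 0.298 in limma-voom), with an interval from -1.78 to 0.19. These intervals hold both no change and a fall of over 2-fold. The p-values measure only the spread between these libraries, which the labels describe as replicate sets processed separately and which may be partly technical.

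Since library C stood apart in both groups, the comparison was repeated with the library set (C against A and B) as a term. This set was defined from the recovered libraries and is not given by the labels. The log2 differences of the 3 members moved by less than their SE, while the SE became smaller, most for mir-141 and mir-200a. mir-141 was lower in NCs by -1.15 ± 0.24 (SE, adjusted p-value 0.00337 in limma-voom) and mir-200a by -0.99 ± 0.23 (SE, adjusted p-value 0.00622), so 2 of the 3 tested members were called. mir-200b, at -0.83 ± 0.35 (SE, adjusted p-value 0.0849), was not called. In that fit 21.7% of the 300 tested miRNAs were called lower in NCs and 43.7% were called in either direction.

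Within the deeper libraries A and B alone, the 95% interval of mir-141 was from -1.49 to -0.56 around -1.02 (adjusted p-value 0.00149 in limma-voom), that of mir-200a from -1.44 to -0.45 around -0.94 (0.00398) and that of mir-200b from -1.49 to 0.12 around -0.69 (0.143). Here too mir-141 and mir-200a were the 2 members called. Of 308 miRNAs tested there, 22.1% were called lower in NCs and 48.7% in either direction. The shallowest libraries, 1 for each group, gave log2 ratios of -2.60 for mir-141, -1.42 for mir-200a and -1.47 for mir-200b, with no test. The direction was thus the same in both library sets for these 3 members. For mir-141 the ratio in the shallowest libraries rested on 3 NC reads.

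**Figure D2:**
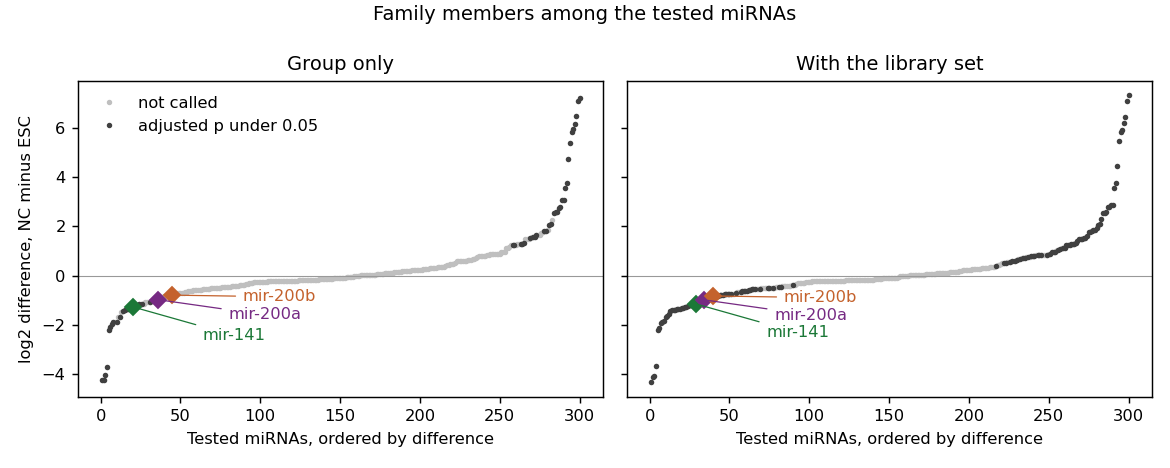
log2 difference, NC minus ESC (y axis), of the 300 tested miRNAs in rising order (x axis), in the fit with group only (left) and with the library set as a term (right). Dark points have an adjusted p-value under 0.05, and diamonds mark mir-141, mir-200a and mir-200b, which held ranks 20, 36 and 45 from the lowest in the fit with group only.

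The scale chosen between the groups bears on these differences. mir-10a alone took a large part of the NC signal, and setting the totals of the groups equal moved every log2 difference by -0.48, or by 0.44 where mir-10a was left out of the totals. With the library set as a term and equal totals without mir-10a, the difference was -0.71 for mir-141 (adjusted p-value 0.0335 in limma-voom), -0.55 for mir-200a (0.0771) and -0.39 for mir-200b (0.363). The call of mir-200a was thus lost at this scaling, while the direction of all 3 was the same. The median log2 difference of all tested miRNAs was 0.34 in that fit and -0.10 at the recovered size factors. Each of the 3 members was lower in NCs than these medians.

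**Figure D3:**
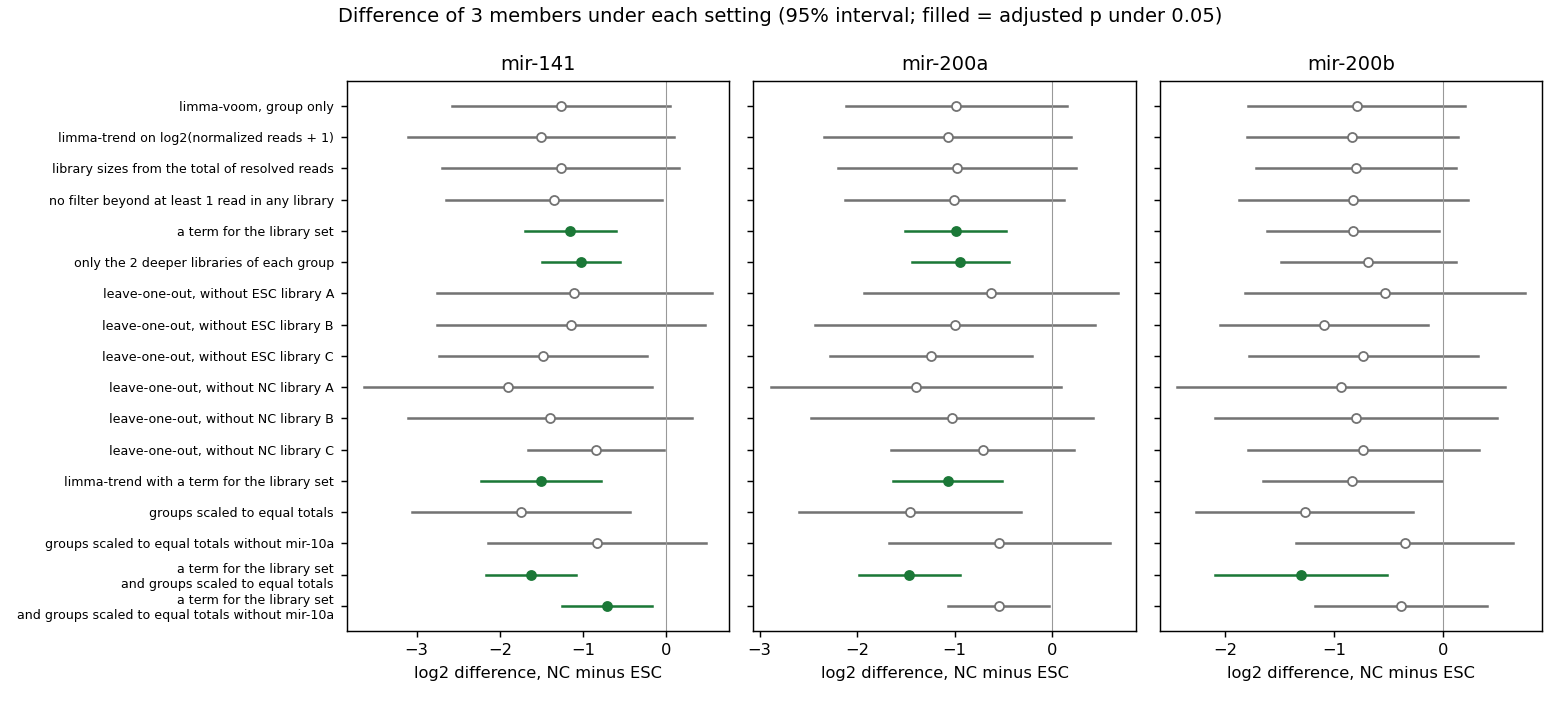
log2 difference, NC minus ESC (x axis), of mir-141, mir-200a and mir-200b with its 95% interval under each setting (y axis), where filled green points have an adjusted p-value under 0.05. All points lie below 0, and the filled ones are all from fits with the library set as a term or with the deeper libraries alone.

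Members of the same cluster differed widely in reads. In the chromosome 6 cluster, mir-200c gave 4 of 174 reads in ESCs, a share of 2.30% (exact Clopper-Pearson 95% interval 0.630 to 5.78), and 5 of 105 in NCs, a share of 4.76% (1.56 to 10.8). mir-141 held the rest, and was higher than mir-200c in 6 of 6 libraries. In the chromosome 4 cluster, mir-429 gave 1 of 294 reads in ESCs (0.340%, 0.00861 to 1.88) and 0 of 188 in NCs, which allows a share of up to 1.60% when 3 reads are taken as the limit, or 1.94% by the exact interval. These intervals cover counting error only, and small-RNA libraries also differ in how well each sequence is captured.

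mir-200b gave 66 of the 293 reads of mir-200b and mir-200a in ESCs (22.5%, 17.9 to 27.7) and 45 of 188 in NCs (23.9%, 18.0 to 30.7), shares whose intervals overlap. The ratio of mir-200a to mir-200b reads, which is free of the size factors, was 3.66, 4.75 and 1.54 in ESC libraries A, B and C and 3.48, 3.09 and 1.60 in NC libraries A, B and C. The lowest ratio of each group was that of library C, where it rested on 20 and 13 reads in ESCs and on 8 and 5 in NCs, and this was not tested. The ratio of mir-141 to mir-200a was 0.653, 0.965 and 0.850 in ESCs and 0.723, 0.706 and 0.375 in NCs. mir-200a exceeded mir-141 in 6 of 6 libraries, an order that was not tested. Their group means differed by less than the SD of mir-200a in each group. That SD is between libraries and does not measure the spread of the difference within a library. mir-141 exceeded mir-200b in 5 of 6 libraries, the exception being NC library C with 3 and 5 reads.

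Summed over the family, the normalized counts were 179, 135 and 91.3 in ESC libraries A, B and C and 89.3, 72.7 and 27.4 in NC libraries A, B and C. The lowest ESC library lay just above the highest NC library. The chromosome 4 cluster summed to 84.1 ± 30.4 in ESCs and 41.6 ± 17.5 in NCs (SD, n = 3), and the chromosome 6 cluster to 51.3 ± 17.6 and 21.6 ± 14.6 (SD, n = 3). The seed of miR-200a and miR-141 held 82.5% ± 7.48 of the family's signal in ESCs and 78.3% ± 8.39 in NCs (SD, n = 3), a difference smaller than the spread between libraries.

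**Figure D4:**
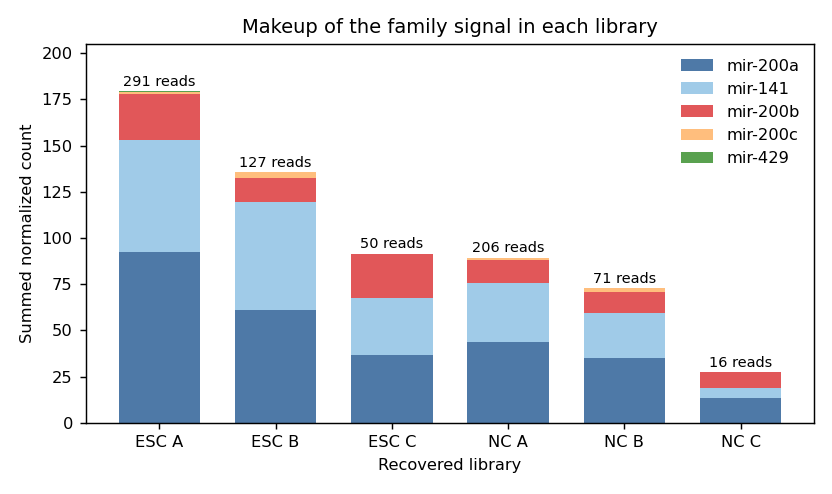
Summed normalized count of the family (y axis, from 0) in each recovered library (x axis), split by member, with the total reads of the 5 members above each bar. mir-200a and mir-141 together make up 68.8% to 88.2% of each bar, and reads fall from 291 in ESC library A to 16 in NC library C.

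The family was set beside 2 lists of miRNAs linked to epithelial and mesenchymal states. Of the 13 other epithelial miRNAs, 12 were above 0 in the authors' means and 9 were tested, of which 2 were called in the fit with group only, both lower in NCs, against 16% of all tested miRNAs called in either direction and 6% called lower. The median log2 difference of the 9 was -0.09, next to the median of -0.09 over all 300 tested miRNAs. The most abundant members of that list, mir-182 and mir-183, had no recovered reads and were not tested, and their ESC means were 1.93 and 1.71 times their NC means in the authors' table (400664 and 207742 for mir-182, 45340 and 26489 for mir-183). The called ones were mir-205, which also targets Zeb1 and Zeb2, and mir-96, of the cluster of miR-183, miR-96 and miR-182.

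mir-205 had a mean of 2417 in ESCs and 525 in NCs in the authors' table, a ratio of 4.60 (adjusted p-value 0.0213 in limma-voom), so it was far above every miR-200 family member in level. mir-96 went from 1365 to 662, a ratio of 2.06 close to that of mir-200a (adjusted p-value 0.0326). With the library set as a term, mir-205 (adjusted p-value 2.61e-06) and mir-96 (0.000251) remained called, and mir-34b and mir-34c, p53-regulated miRNAs that target Snai1, were called higher in NCs by 0.77 and 0.84 (adjusted p-values 0.00665 and 0.000218), so that 4 of the 9 were called, against 43.7% of all tested miRNAs. mir-203, a miRNA of the epidermis, had means of 1.58 and 0.919, under the floor in both groups, and mir-375 was listed at 0.

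Of the 11 mesenchymal miRNAs, 7 were tested, and in the fit with group only 2 were called, both higher in NCs, against 16% of all tested miRNAs called in either direction. These were mir-199a-1 and mir-199a-2, gene copies with the same mature sequences, whose means rose from 18.4 to 41.0 and from 18.1 to 42.6 (adjusted p-value 0.0329 for both in limma-voom). When the library set was a term, mir-199b was also called higher by 1.47 (adjusted p-value 0.00591), and mir-155 and mir-145a were called lower by -0.67 and -0.80 (0.00200 and 0.00210), which made 5 of 7 called, against 43.7% of all tested miRNAs. The median log2 difference of the 7 was 0.79 with group only and 0.86 with the library set, against -0.09 and -0.10 over all 300 tested miRNAs. In each fit this median was the value of a single member that was not called. The list also marks fibroblasts and other stromal cells, and its 9 members with recovered reads summed to between 364 and 537 normalized counts in ESCs and between 376 and 400 in NCs. The 2 most abundant members, mir-10b and mir-21a, had no recovered reads in NCs, were not tested and are not in that sum. The authors' means went from 1375 to 55789 for mir-10b, a Hox-cluster miRNA, and from 12454 to 12526 for mir-21a, so that the means of the whole list summed to 14255 in ESCs and 68705 in NCs. mir-214, with means of 1.48 and 10.3, did not pass the filter. mir-143 was listed at 0 in both groups, while mir-145a had means of 113 in ESCs and 67.1 in NCs.

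The lists of cell type markers gave the range within which the family's differences lie. Of the 12 ESC markers, 7 were tested and all 7 were called lower in NCs with group only, against 6% of all tested miRNAs. Their median log2 difference was -2.23, against -0.09 over all 300 tested miRNAs. The furthest were mir-302a and mir-302c, with ratios of 19.9 and 19.4. The 3 tested neural markers, the copies of mir-9, had ratios of 1.81 to 1.83 in favour of NCs. They were not called with group only (adjusted p-values 0.0798 to 0.0812 in limma-voom). All 3 were called with the library set as a term (0.00322 to 0.00390) and in the deeper libraries alone. In these 2 fits 43.7% and 48.7% of all tested miRNAs were called in either direction. The copies had nearly the same values, with ESC means of 423, 420 and 421, so they are close to 1 measurement. Of the 4 blood markers 3 were matched. mir-142 had means of 924 and 357, while mir-144 and mir-451a were between 0.723 and 2.27 in both groups, under the floor. The 5 muscle markers matched were listed at 0 in both groups. The part of other cell types in the differences of the family was not tested.

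**Figure D5:**
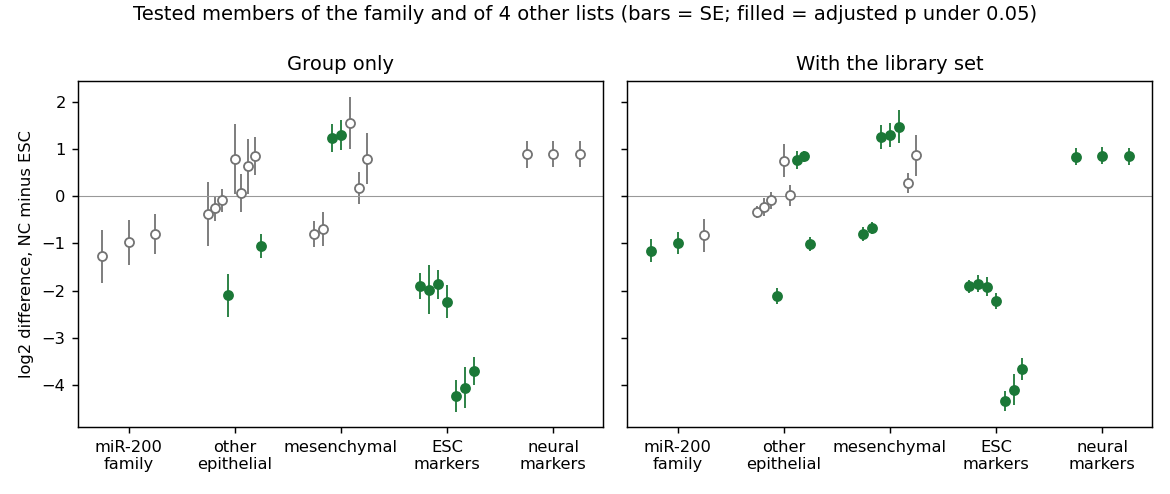
log2 difference, NC minus ESC (y axis), of the tested members of the miR-200 family and of 4 other lists (x axis), with SE as bars, in the fit with group only (left) and with the library set as a term (right). Filled green points have an adjusted p-value under 0.05. The 3 family members lie between those of the ESC markers and 0 in both panels.

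The miRNAs whose pattern was most like that of the family's summed level were found by Pearson's correlation of log2(normalized count + 1) over the 6 libraries, among 289 miRNAs with a mean of at least 10. They were mir-376b (r = 0.973), mir-194-1 (0.972), mir-669c (0.956), mir-142 (0.953) and mir-24-2 (0.941), and 7 in all had r over 0.9. These values are a description, and both the group and the library set enter them. mir-376b, an imprinted miRNA, had 91.2, 88.5 and 63.9 normalized counts in ESC libraries A, B and C and 52.0, 52.2 and 30.8 in NC libraries A, B and C. mir-142, a miRNA of blood cells, had 1083, 1351 and 340 in ESCs and 505, 517 and 47.9 in NCs. As in the family, the lowest value of each group was that of library C. With the library set as a term, mir-376b, mir-142 and mir-24-2 were called lower in NCs (adjusted p-values 0.00200, 0.000514 and 0.0224 in limma-voom). In that fit 21.7% of all tested miRNAs were called lower. The 5 were picked for following the family's level over these same 6 libraries. Their calls therefore follow in part from that choice and are no separate evidence on the family. With group only, the adjusted p-values of the 5 ranged from 0.112 to 0.652.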

How the data were processed

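Small-RNA libraries of 3 ESC and 3 NC samples were grouped by the sample labels. The authors deposited 1 table with, for each miRNA gene, the mean signal of each group, that is, of counts scaled by library size factors. The submitters' processing notes name mm10 and DESeq. How reads were trimmed, aligned and counted, and on which miRNA annotation, was not given in the sources used here. The table also holds the authors' own fold changes and p-values, which were not used.

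Each group mean was resolved into whole reads of 3 libraries by enumeration (tolerance 1e-10, a single solution required), which gave reads for 522 of the 549 detected ESC miRNAs and 565 of the 602 detected NC miRNAs. The most abundant stayed unresolved: those resolved held 9.63% and 5.50% of the signal, and between 52424 and 196601 reads a library. In data simulated for each group, all 491 and 530 resolved miRNAs were right. limma 3.58.1 with voom weights (R 4.3.3) was run with these size factors on miRNAs that reached 10 reads in 3 libraries (in 2 where a group had 2). Tested on simulated counts of 594 miRNAs for this comparison with 200 changed 4-fold, 103 of the 103 changed miRNAs that passed the filter were called, with 1 false call. The simulation gave every miRNA the same extra spread beyond counting error and held no shift of library C. It therefore does not measure how often smaller changes would be missed, or false calls made, in these data. Intervals of shares were computed in scipy 1.17.1 (Python 3.11.15).

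The members, lists and settings were chosen with earlier results of these data known. Besides the members, miRNAs named were the 5 most alike in pattern, up to 3 called members of each list with the largest difference, and those that a small count turned on; mir-34b, mir-34c, mir-203, mir-375, mir-182, mir-183, mir-10b, mir-21a, mir-214, mir-143, mir-155, mir-145a, mir-199b and the markers given with their means were named after their values were seen. Coordinates are those of GENCODE M21 (GRCm38), with all 5 hairpins placed alike in RefSeq.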

Additional observations from a re-analysis of the deposited data

How the results depend on the processing

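No paired analysis was possible because nothing ties a recovered library to a labelled replicate. Tests that need deposited counts of single libraries were left out, since the table holds group means. Asking for 10 reads in every library left no member to test.

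The 3 tested members were lower in NCs in all 16 alternative fits run on them, with log2 differences from -1.90 to -0.71 for mir-141, from -1.46 to -0.54 for mir-200a and from -1.30 to -0.36 for mir-200b. Leaving out 1 library gave -1.90 to -0.84, -1.40 to -0.63 and -1.09 to -0.53, with adjusted p-values from 0.111 to 0.680 over these fits. The difference of mir-141 passed the threshold with the library set as a term (-1.15), with the deeper libraries alone (-1.02), and, in alternatives chosen after the data were seen, in limma-trend with the library set (-1.51) and with the library set at equal totals (-1.63) or at equal totals without mir-10a (-0.71). That of mir-200a passed in the first 4 of these (-0.99, -0.94, -1.07 and -1.46), and that of mir-200b only with the library set at equal totals (-1.30). Every fit in which a member passed sets library C apart, a split that was defined from the recovered data and not from labels. None of these fits was therefore fixed before the data were seen.

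Over all tested miRNAs 48 passed (30 up and 18 down in NCs), 28 with at least 10 reads in every library, 131 with the library set (66 up and 65 down), 117 by limma-trend with it, 150 with the deeper libraries alone, and 189 or 144 with the library set at equal totals with or without mir-10a. Equal totals without the library set gave 20 up and 39 down, and without mir-10a 45 up and 10 down. Leaving out 1 library gave 22 to 53, with 22 and 27 without ESC library A or B and 27 and 24 without NC library A or B. The causes were not tested. Of the 9 other epithelial miRNAs tested, 2 were called with group only, both lower in NCs. With the library set 4 were called (2 higher and 2 lower), and with the deeper libraries 5 (2 higher and 3 lower). Of the 7 mesenchymal ones tested, 2 were called with group only, both higher. With the library set 5 were called (3 higher and 2 lower), and with the deeper libraries 7 (5 higher and 2 lower). Of all tested miRNAs, 16%, 43.7% and 48.7% were called in these fits, in the same order. The median log2 difference of all 5 members from the group means, with a pseudocount of 1, was -0.87, against 0.07 over all 634 miRNAs above 0, and ranged from -1.30 to -0.47 over other pseudocounts, scalings and filters; mir-200c and mir-429, at the floor, are among the 5.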
